A study of Mus musculus with 16 samples.

Results

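Transcripts of the integrin and laminin genes were followed through the left ventricle of the heart and the subcutaneous white adipose tissue (scWAT) of mice of the C57BL/6J strain, all aged 28 weeks. The genes were taken by symbol: the integrin alpha genes (Itga followed by a number or letter), the integrin beta genes Itgb1 to Itgb8 and the laminin chain genes (Lama, Lamb and Lamc followed by a number). Among 33641 gene symbols, 37 met that rule, 26 of them integrins and 11 laminins. Group means reached 1 TPM (transcripts per 1e+06, a measure already divided by transcript length) in 1 or more of the 4 groups for 33 of the 37, made up of 23 integrins and 10 laminins. The groups were 4 hearts labelled Adipo-HuR KO (mice A25, A29, A30 and A31) and 4 wild-type hearts (A5, A7, A8 and A14), and 3 scWAT libraries labelled Adipo-HuR KO (A24, A26 and A30) and 5 wild-type scWAT libraries (A5, A7, A8, A12 and A14). Adipo-HuR KO stands for a deletion, in adipocytes, of HuR, which is an RNA-binding protein whose gene is Elavl1, and the study asked what changes with it in fat and in the heart. The sources used here do not name the driver of the deletion, and whole tissues were sequenced. The 16 libraries came from 11 mice, and 5 mice gave both tissues (wild-type A5, A7, A8 and A14, and A30 of the labelled KO group).

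Integrins are cell-surface receptors made of an alpha and a beta chain. They hold cells to the extracellular matrix or to other cells, and which ligand they bind depends on the pair. Laminins are trimers of an alpha, a beta and a gamma chain that form the sheet of the basement membrane around each cardiomyocyte, each adipocyte and under the endothelium. Cardiomyocytes hold laminin through the beta1 integrins and through dystroglycan, and leukocytes use beta2 integrins to leave the blood.

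The start regions of 4 genes to which the heart results below return are shown: the widely shared beta chain gene Itgb1, the alphav partner Itgb5, and the neighbouring leukocyte alpha chain genes Itgam and Itgax. Each is the 250 bases before the gene's start in RefSeq (build GRCm38.p6, plus strand), and 23 of the 37 genes had an entry in that promoter table. Capitals mark GAGGAA (the core read by Ets factors such as PU.1), GGGCGG (a GC box, read by Sp and KLF factors) and TGACTCA (an AP-1 site), each searched on both strands, so that a match on the other strand reads as the reverse complement.
Itgb1, chr8:128685404-128685653: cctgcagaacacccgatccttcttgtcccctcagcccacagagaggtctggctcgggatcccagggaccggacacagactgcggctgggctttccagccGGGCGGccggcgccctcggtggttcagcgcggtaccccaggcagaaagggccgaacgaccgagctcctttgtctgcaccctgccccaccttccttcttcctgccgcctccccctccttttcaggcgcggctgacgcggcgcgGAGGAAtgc
Itgb5, chr16:33829415-33829664: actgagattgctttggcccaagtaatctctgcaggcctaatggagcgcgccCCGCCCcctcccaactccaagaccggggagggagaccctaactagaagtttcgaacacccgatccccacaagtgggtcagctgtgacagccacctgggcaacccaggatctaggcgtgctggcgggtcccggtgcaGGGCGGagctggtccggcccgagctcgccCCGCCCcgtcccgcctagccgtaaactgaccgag
Itgam, chr7:128062390-128062639: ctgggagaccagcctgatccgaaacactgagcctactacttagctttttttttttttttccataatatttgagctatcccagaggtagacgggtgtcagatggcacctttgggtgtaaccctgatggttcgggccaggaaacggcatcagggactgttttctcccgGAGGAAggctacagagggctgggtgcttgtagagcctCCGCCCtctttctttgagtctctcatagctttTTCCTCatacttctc
Itgax, chr7:128129300-128129549: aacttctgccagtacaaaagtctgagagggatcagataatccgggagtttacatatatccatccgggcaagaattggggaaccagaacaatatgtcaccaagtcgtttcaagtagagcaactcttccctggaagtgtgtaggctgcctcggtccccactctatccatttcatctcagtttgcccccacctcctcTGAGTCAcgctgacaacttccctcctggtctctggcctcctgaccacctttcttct
The Itgb5 window held 3 GC boxes and 65.2% G or C, and the Itgb1 window held 1 GC box, 1 GAGGAA and 68.0% G or C. The Itgam window held GAGGAA at positions -84 and -15 from the start and 1 GC box, with 49.6% G or C. The Itgax window held TGACTCA at position -56 and 50% G or C. No match overlapped another. Over all 32851 promoters of the table, cut in the same way, 23.3% held GAGGAA, 32.7% GGGCGG, 4.46% TGACTCA and 12.4% TATAAA. Among the 23 matched genes, 13 held GAGGAA, 8 held GGGCGG, 1 held TGACTCA and 0 held TATAAA. A gene was counted if any of its entries held the motif, whereas the shares above are of entries. These are unlike measures, and no excess is read from them. In the RefSeq annotation of GRCm38.p6, Itgam, Itgax and Itgad followed each other on chromosome 7 with 0 protein-coding genes between them. Itga2 lay next to Itga1 on chromosome 13 in the same way.

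Both tissues carried the markers of their label: each of 6 cardiomyocyte markers averaged at least 1 TPM in both heart groups, and each of 6 adipocyte markers did so in both scWAT groups. Elavl1 went against the genotype label in the fat. In scWAT it stood at 42.9, 42.0 and 36.2 TPM in the labelled KO libraries, against 33.4, 34.5, 27.6, 19.5 and 19.0 TPM in the wild-type libraries. It was thus not lower in the labelled KO group. The label names a deletion in adipocytes, and whole tissue with its other cells was sequenced. In heart it averaged 10.9 ± 3.46 TPM in the labelled KO group and 10.4 ± 2.68 TPM in wild-type (SD, n = 4 each). Gene-level TPM does not by itself tell a transcript that lacks a deleted part from a complete one, and this was not tested for Elavl1. Heart A29, labelled KO, stood apart from the rest of its group: its log2 values correlated with those of the wild-type hearts at 0.977 to 0.990 (Pearson's r across genes, which are not independent replicates) and with the other labelled KO hearts at 0.901 to 0.915. Of the scWAT libraries, A26 of the labelled KO group held summed B cell markers of 512 TPM and summed T cell markers of 389 TPM, against 6.01 to 6.58 TPM and 13.2 to 13.3 TPM in A24 and A30 and up to 22.5 and 17.4 TPM in wild-type scWAT. Calls that rest on A29 or A26 are therefore given with and without them. The scWAT fits without A26 rest on A24 and A30 of the labelled KO group. Summed skeletal muscle markers were 2375 and 5248 TPM in A24 and A30. The same sum was 209 TPM in A26 and 6.19 to 539 TPM in wild-type scWAT. Its part in the scWAT values below, Itga7 among them, was not tested. In bulk tissue, fewer cells of a type and less RNA per cell cannot be told apart.

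In the heart the question was whether cell adhesion transcripts differ in the left ventricle of mice labelled with the adipocyte deletion. With all 4 hearts labelled Adipo-HuR KO, none of the integrin or laminin genes passed the test: of the 37, 21 averaged 1 TPM or more over the 8 hearts and were tested, and 0 were called higher and 0 lower (limma on log2(TPM + 1), 2-sided, Benjamini-Hochberg adjusted p under 0.05 over all genes). Before adjustment, 6 genes had a p under 0.05, with 4 of them higher and 2 lower. Over all 11981 genes tested, 6 or 0.0501% were called higher and 0% lower. Without A29, 8 of 22 tested genes were higher in the labelled KO hearts (among them Itgb1, Itgb2, Itgb5, Itgam, Itgav, Itga1 and Itga11) and 1 was lower (Itga6), where 34.8% of all genes were called higher and 4.16% lower. Of these 22, Itga11 and Itga2b averaged under 1 TPM in wild-type hearts and passed the filter through the labelled KO hearts. The call of Itga11 is therefore no support for a difference. Limma's array weights, which give less weight to libraries that depart from the fit, called the same 8 genes higher and 9 lower in all 8 hearts (Itga3, Itga6, Itga7, Itgb6, Lama2, Lama5, Lamb1, Lamb2 and Lamb3), where the background was 43.1% higher and 22.7% lower. Heart fold changes below are log2 values with the median of all tested genes subtracted (0.26 with all hearts, 0.39 without A29). The same holds for scWAT (0.03) and the interaction (0.24), and all adjusted p come from the fit before that subtraction. An adjusted p thus belongs to the fitted change, which is the relative change with the median of its fit added back. The relative changes themselves were not tested.

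Among the beta chains, Itgb1 and Itgb5 were higher in the labelled KO hearts once A29 was left out. Itgb1, the beta chain shared by most matrix-binding integrins and the main one of cardiomyocytes, stood at 229, 139.6, 251 and 273 TPM in the labelled KO hearts A25, A29, A30 and A31, against 125, 145, 149 and 135 TPM in wild-type hearts A5, A7, A8 and A14. All labelled KO hearts but A29 lay above every wild-type heart. Its relative log2 fold change was 0.39 (SE 0.22, adjusted p = 0.142) with A29 and 0.47 (SE 0.13, adjusted p = 0.000711) without it. Itgb5, which pairs with alphav to bind vitronectin and the latent form of TGF-beta, stood at 71.3, 26.7, 85.3 and 75.4 TPM in the labelled KO hearts, against 24.2, 29.3, 35.6 and 34.3 TPM in wild-type hearts. A29 again lay within the wild-type range, and the other 3 were each above 70 TPM. Its change was 0.68 (SE 0.33, adjusted p = 0.149) with A29 and 0.92 (SE 0.17, adjusted p = 0.000336) without it. Summed over the 8 integrin beta genes, labelled KO hearts held 302 ± 89.4 TPM and wild-type hearts 175 ± 16.3 TPM (SD, n = 4 each), with 172 to 363 TPM against 153 to 192 TPM. Itgb1 made up 74.8% ± 4.73 of that sum in labelled KO hearts and 79.0% ± 2.26 in wild-type hearts. Itgb5 made up 20.7% ± 3.66 in labelled KO hearts and 17.5% ± 1.80 in wild-type hearts.

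The leukocyte chains Itgb2 and Itgam were likewise higher without A29, and the leukocyte alpha chain Itgal was under the filter of the test in every heart. Itgb2, the beta chain of the leukocyte integrins, stood at 8.97, 1.04, 13.7 and 8.85 TPM in the labelled KO hearts, against 1.32, 1.97, 2.65 and 1.71 TPM in wild-type hearts. Its partner Itgam, the alpha chain of the myeloid receptor CD11b, stood at 5.95, 0.871, 8.91 and 7.70 TPM against 1.23, 1.97, 1.67 and 1.46 TPM in wild-type hearts. For both genes A29 was the lowest of all 8 hearts. Itgb2 changed by 1.10 (SE 0.52, adjusted p = 0.156) with A29 and by 1.59 (SE 0.23, adjusted p = 0.000211) without it. Itgam changed by 0.92 (SE 0.46, adjusted p = 0.161) with A29 and by 1.33 (SE 0.20, adjusted p = 0.000209) without it. Itgax, the alpha chain CD11c, lay under the filter of the test, at 1.48, 0.0960, 2.85 and 1.51 TPM in the labelled KO hearts and 0.117, 0.296, 0.238 and 0.172 TPM in wild-type hearts. Of the other leukocyte alpha chains, Itgal stood at 0.244 to 0.863 TPM in labelled KO hearts and 0.1601 to 0.469 TPM in wild-type hearts, and Itgad at 0.125 to 0.405 TPM and 0.1299 to 0.783 TPM. Itgae and Itgb7, the chains of the receptor that holds lymphocytes in epithelia, also lay under the filter. Itgae stood at 0.382, 0.0515, 0.467 and 0.421 TPM in the labelled KO hearts and 0.0488 to 0.173 TPM in wild-type hearts, with only A29 in the wild-type range. Itgb7 stood at 0.136 to 1.23 TPM (median 1.03) in labelled KO hearts and 0.270 to 0.394 TPM in wild-type hearts. Markers of macrophages moved with Itgb2 and Itgam: the 6 markers summed to 771, 94.7, 835 and 1023 TPM in the labelled KO hearts and 94.3 to 152 TPM in wild-type hearts. None was at 0, and 0 of the 6 were called with A29 and 6 of 6 were higher without it. B cell and T cell markers were low and under the filter. T cell markers summed to 3.41, 1.35, 5.01 and 4.45 TPM in the labelled KO hearts and 0.751 to 1.92 TPM in wild-type hearts. All labelled KO hearts but A29 thus lay above every wild-type heart. B cell markers overlapped, at 0.637 to 3.05 TPM and 1.04 to 2.92 TPM. The part of the macrophage and lymphocyte signals in the integrin values was not tested.

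**Figure D1:**
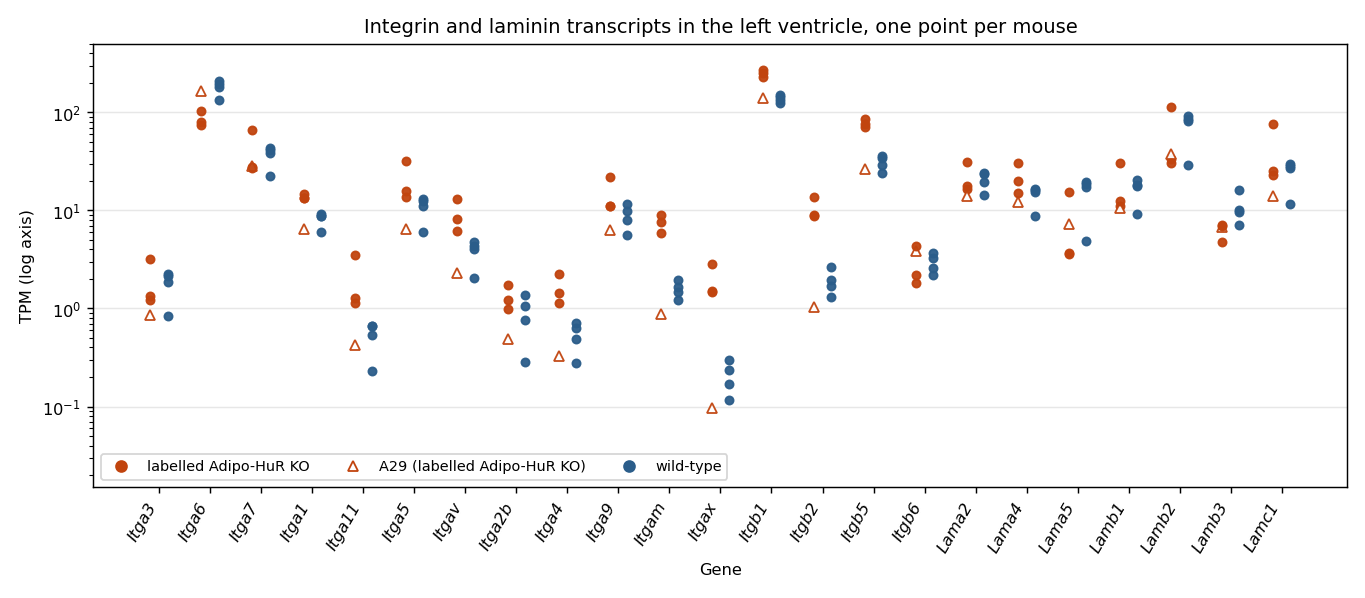
TPM (log axis) of the integrin and laminin genes described whose mean reached 1 TPM in either heart group, 1 point per mouse, labelled Adipo-HuR KO hearts left of wild-type hearts for each gene and A29 as an open triangle. For Itgb1, Itgb5, Itgb2 and Itgam the 3 filled labelled KO points lie above the wild-type points and A29 lies among or below them, and for Itga6 the 3 filled points lie below.

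Among the alpha chains, Itga6 was lower and the matrix-binding chains Itga1 and Itgav were higher in the labelled KO hearts without A29. Itga11 was called higher as well, but it passed the filter through the labelled KO hearts. Itga6, a laminin receptor chain of endothelium and epithelium that pairs with Itgb1 or Itgb4, stood at 74.7, 165, 102.6 and 80.0 TPM in the labelled KO hearts, against 133, 194, 211 and 181 TPM in wild-type hearts. A29 lay within the wild-type range and the other labelled KO hearts lay below it. Its change was -1.07 (SE 0.26, adjusted p = 0.142) with A29 and -1.44 (SE 0.19, adjusted p = 0.00191) without it. Itga6 made up 51.2% ± 16.5 of the summed TPM of the 18 integrin alpha genes in labelled KO hearts and 70.8% ± 2.34 in wild-type hearts (SD, n = 4 each). Endothelial markers, 6 in number and none at 0, summed to 282, 190.1, 339 and 301 TPM in the labelled KO hearts and 143 to 280.4 TPM in wild-type hearts. Without A29, 2 of the 6 were higher, and their part in the Itga6 values was not tested. The other laminin-binding alpha chains overlapped between the groups. Itga7, the alpha chain that pairs with Itgb1 as the laminin receptor of striated muscle, stood at 27.4, 28.7, 66.2 and 27.6 TPM in the labelled KO hearts and 22.4, 41.3, 43.3 and 38.7 TPM in wild-type hearts. Itga3 stood at 0.8495 to 3.22 TPM in labelled KO hearts and 0.8288 to 2.27 TPM in wild-type hearts.

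The collagen-binding chain Itga1 stood at 13.4, 6.43, 14.8 and 13.3 TPM in the labelled KO hearts and 6.02, 8.85, 9.23 and 8.69 TPM in wild-type hearts. Without A29 its fitted change was 0.70 (SE 0.19, adjusted p = 0.0169), and its relative change was 0.32. With A29 its adjusted p was 0.316. Itga11, a collagen receptor chain of fibroblasts, stood at 1.13, 0.420, 3.51 and 1.27 TPM and at 0.232, 0.658, 0.666 and 0.533 TPM in wild-type hearts. It thus passed the filter on low values through the labelled KO hearts, and its call is no support for a difference. Its change was 0.39 (adjusted p = 0.239) with A29 and 0.50 (SE 0.26, adjusted p = 0.0248) without it, where the fitted change was 0.89. Itgav, the alpha chain that pairs with Itgb5 and binds ligands holding the RGD tripeptide, stood at 6.23, 2.29, 13.0 and 8.20 TPM in the labelled KO hearts and 2.06, 4.36, 4.03 and 4.77 TPM in wild-type hearts, a change of 0.42 with A29 (adjusted p = 0.317) and 0.67 without it (SE 0.30, adjusted p = 0.0183). For each of these chains A25, A30 and A31 lay above all wild-type hearts and A29 within their range. Itga5, the fibronectin receptor chain, did the same at 15.8, 6.50, 31.8 and 13.6 TPM in labelled KO hearts and 6.01, 13.1, 12.6 and 11.1 TPM in wild-type hearts, but did not pass the test without A29 (change 0.44, adjusted p = 0.0740).

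Among the genes tested without A29, 9 did not overlap between the groups with the labelled KO hearts above (the 8 called and Itga5; 45.3% of all genes) and 1 with them below (Itga6; 3.65% of all genes). With A29, 0 of the tested integrins and laminins were free of overlap in either direction, where 3.71% of all genes were so upward and 0.634% downward. The share called higher among the integrins and laminins, 8 of 22, was therefore close to that of all genes. Of the remaining alpha chains, Itga9 and Itga2b overlapped with and without A29. Itga9, which binds tenascin and osteopontin, stood at 6.396 to 21.7 TPM in labelled KO hearts and 5.57 to 11.6 TPM in wild-type hearts. Itga2b, the platelet chain, stood at 0.487 to 1.74 TPM and 0.287 to 1.39 TPM. Itga4, a receptor chain for VCAM-1 and fibronectin, lay under the filter of the test. It stood at 1.15, 0.328, 2.24 and 1.45 TPM in the labelled KO hearts and 0.280 to 0.709 TPM in wild-type hearts. Of the labelled KO hearts, only A29 lay within the wild-type range for Itga4. Itgb6, an epithelial partner of alphav, stood at 1.83 to 4.35 TPM and 2.19 to 3.70 TPM, and Itgb3, the partner of Itga2b and alphav, at 0.249 to 1.77 TPM and 0.213 to 0.617 TPM.

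**Figure D2:**
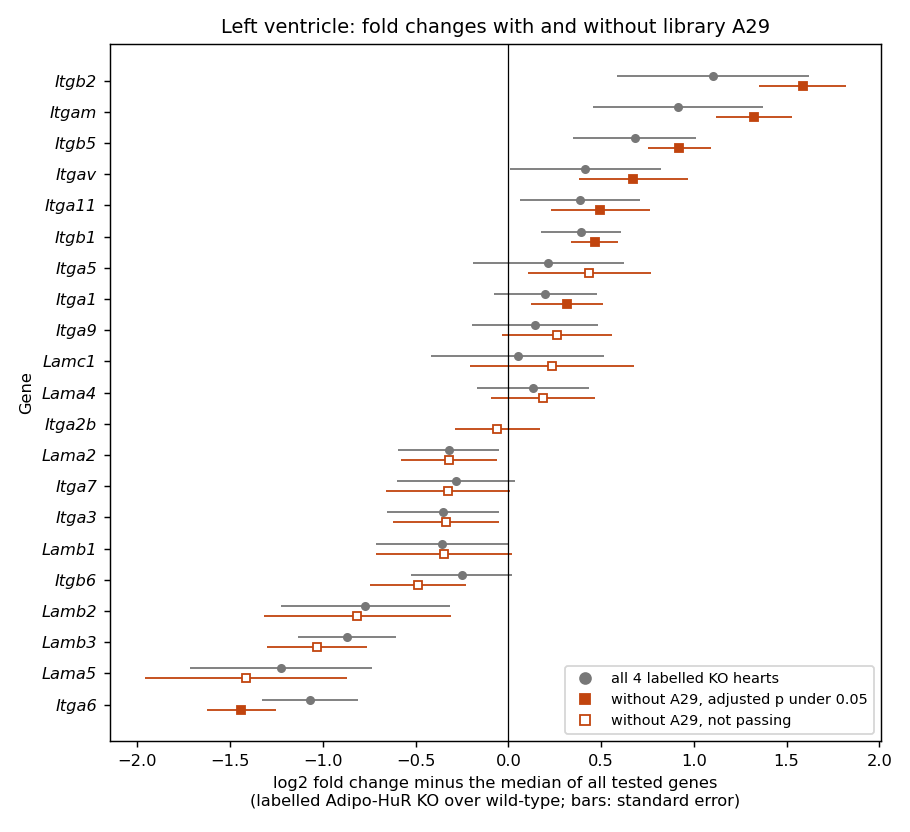
Log2 fold change of the tested integrin and laminin genes described in heart, labelled Adipo-HuR KO over wild-type, with the median of all tested genes subtracted (x axis; bars are standard errors), for all 4 labelled KO hearts (grey circles) and without A29 (squares, filled where the adjusted p is under 0.05). Itgb2 and Itgam stand farthest to the right and Itga6 farthest to the left without A29, at 1.59, 1.33 and -1.44.

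None of the laminin chains described for the heart passed the test of the main fit, with or without A29. Lamb3, a beta chain of epithelial laminin, stood at 4.80, 6.81, 7.002 and 7.14 TPM in the labelled KO hearts and 7.05, 10.03, 16.1 and 9.64 TPM in wild-type hearts. Lama3, an alpha chain of epithelial laminin, stood at 0.273 to 0.727 TPM in labelled KO hearts and 0.151 to 0.489 TPM in wild-type hearts. Lamb3 was the laminin gene with the smallest unadjusted p with all hearts, at a change of -0.87 (SE 0.26, adjusted p = 0.184), and without A29 its change was -1.03 (adjusted p = 0.0850). For Lamb3, A25, A29 and A30 lay below every wild-type heart and A31 lay just above the lowest of them.

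The chains of the muscle and vessel basement membrane overlapped between the groups. Lama2, the alpha chain of the muscle laminin, stood at 16.6, 14.02, 30.9 and 17.6 TPM in the labelled KO hearts and 14.3, 24.1, 23.3 and 19.3 TPM in wild-type hearts. Lama4, an alpha chain of endothelium and fat, stood at 15.2, 12.3, 30.6 and 20.0 TPM and at 8.78, 16.4, 16.2 and 15.5 TPM in wild-type hearts. Lama5, the other vascular alpha chain, stood at 3.64, 7.23, 15.6 and 3.59 TPM in the labelled KO hearts and 4.87, 19.5, 17.3 and 18.5 TPM in wild-type hearts (change -1.23, SE 0.49, adjusted p = 0.242). A25 and A31 lay below every wild-type heart for Lama5, but A30 and A29 did not. Lamb2, the beta chain of mature muscle and vessel laminins, stood at 33.5, 37.7, 113 and 30.6 TPM and at 29.1, 86.3, 92.6 and 81.6 TPM in wild-type hearts. Lamb1 stood at 11.2, 10.6, 30.6 and 12.4 TPM in labelled KO hearts and 9.21, 20.5, 17.8 and 18.3 TPM in wild-type hearts. Lamc1, the gamma chain of most laminins, stood at 23.2, 14.2, 76.7 and 25.3 TPM in labelled KO hearts and 11.5, 30.04, 28.6 and 27.0 TPM in wild-type hearts.

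Taken per library, Itga3, Itga7, Lama2, Lama5, Lamb1, Lamb2 and Lamc1 followed one order. A30 of the labelled KO group and A7, A8 and A14 of the wild-type group were high, and A25, A29 and A31 of the labelled KO group and A5 of the wild-type group were low. In transcripts of GENCODE M21, Lama2 held 47.7% G or C, under the median of 49.7% over the genes tested in heart. The others held from 52.5% (Lamb1) to 59.9% (Lama5). The contrasts by base composition and by transcript length moved with that order. For each heart, the log2 deviation of each tested gene from its median over the 8 hearts was taken. The median deviation in the highest of 10 bins of G or C content less that in the lowest was -0.24, -0.14, 0.08 and -0.47 in the labelled KO hearts A25, A29, A30 and A31, against -0.19, 0.06, 0.24 and 0.11 in wild-type hearts A5, A7, A8 and A14. The same contrast for transcript length was -0.54, -0.22, 0.12 and -0.47 in the labelled KO hearts and -0.09, 0.21, 0.14 and 0.20 in wild-type hearts. Both contrasts were above 0 in the 4 high hearts and below 0 in the 4 low ones, and their part in the integrin and laminin values was not tested. The share of mitochondrially encoded transcripts, 43.4% to 55.7% of the TPM in labelled KO hearts and 51.9% to 60.6% in wild-type hearts, did not follow that order: A25 and A31 lay below A7, A8 and A14, and A29 and A5 above them.

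Because TPM is scaled per length, the chains of one kind can be set against each other within a library, which leaves out the scaling between libraries. Lama4 took 42.5%, 36.3%, 39.3% and 48.2% of the laminin alpha TPM in the labelled KO hearts A25, A29, A30 and A31, against 31.3%, 27.1%, 28.3% and 28.8% in wild-type hearts A5, A7, A8 and A14. All 4 labelled KO hearts, A29 among them, lay above all 4 wild-type hearts. The means were 41.6% ± 5.12 and 28.9% ± 1.75 (SD, n = 4 each). No test is given for this share, because it was singled out after its values had been seen. The counterpart was Lama5, at 10.2%, 21.4%, 20.0% and 8.64% in the labelled KO hearts and 17.3%, 32.3%, 30.3% and 34.4% in wild-type hearts, which overlapped because A5 was low. Lama2 took 42.5% ± 2.87 and 41.9% ± 6.35. Among the beta chains Lamb2 took 68.1% ± 5.74 in labelled KO hearts and 71.4% ± 4.87 in wild-type hearts. Lamb1 took 21.7% ± 2.49 and 17.2% ± 2.58. In transcripts of GENCODE M21 the G or C content was 50.03% for Lama4, 47.7% for Lama2 and 59.9% for Lama5, against a median of 49.7% over the genes tested in heart, and the part of the composition of the libraries in these shares was not tested.

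**Figure D3:**
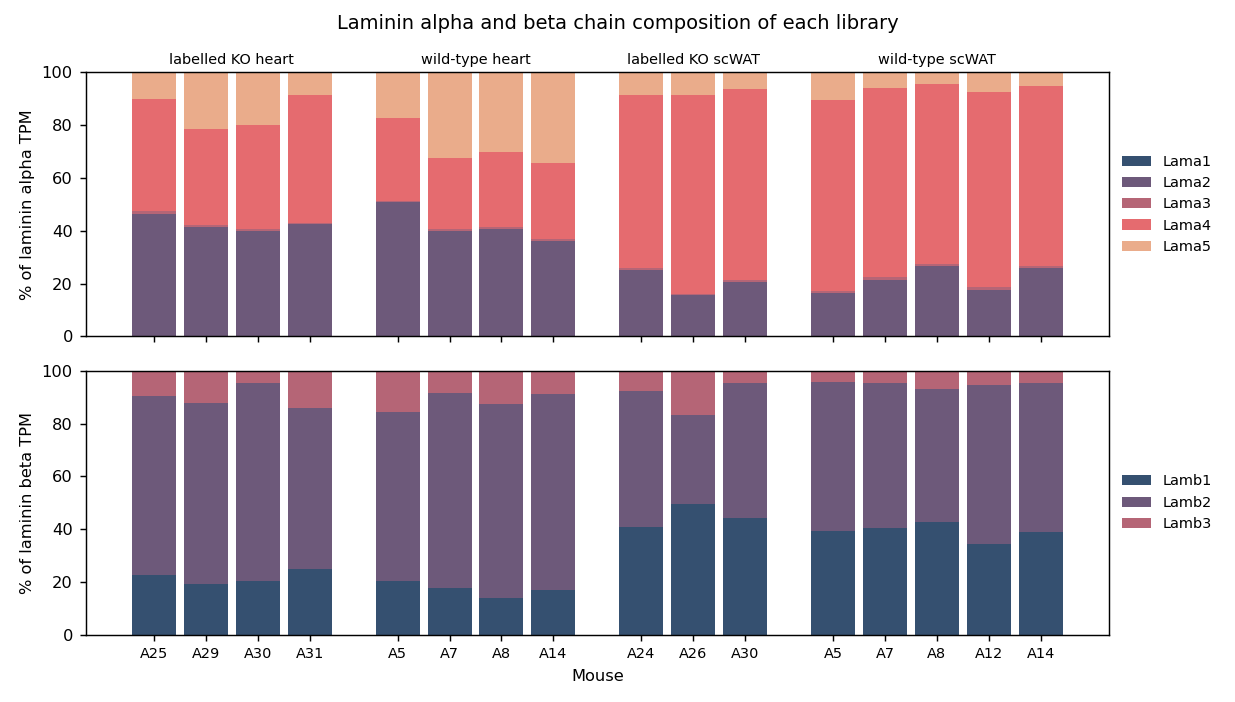
Share of each laminin alpha and beta gene in the summed TPM of its chain type (alpha and beta panels, y axis in percent), 1 bar per library, grouped as labelled KO heart, wild-type heart, labelled KO scWAT and wild-type scWAT. Lama4 takes 36.3% to 48.2% of the alpha chains in labelled KO hearts and 27.1% to 31.3% in wild-type hearts, and averages 71.0% in labelled KO scWAT and 70.9% in wild-type scWAT.

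Genes that act with integrins and laminins were counted from 3 lists: adaptors inside the cell, basement membrane and dystroglycan partners, and integrin ligands. With all hearts, 0 of 28 tested adaptors, 0 of 25 tested partners and 0 of 18 tested ligands passed. Without A29, 34.8% of all genes were called higher and 4.16% lower. Of the 28 adaptors 9 were then higher and 1 lower (32.1% and 3.57%; median relative change -0.02), and of the 25 partners 7 were higher and 2 lower (28.0% and 8%; median -0.02), so that the shares higher were near or under that of all genes. Of the 18 ligands 14 were higher and 0 lower (median 1.82). Among those 18, Spp1 and Tnc averaged under 1 TPM in wild-type hearts and passed the filter through the labelled KO hearts, and 12 of the other 16 were higher. The lists had been chosen with earlier results of these data known. The ligand share is therefore no support for a difference from all genes. By the subtraction, the median of all tested genes is 0 on this scale.

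The ligands named had low values in A29 and in every wild-type heart. Postn, the matrix protein periostin, stood at 934, 13.1, 1016 and 1322 TPM in the labelled KO hearts and 8.43, 11.7, 20.6 and 13.7 TPM in wild-type hearts (relative log2 change 4.45, adjusted p = 0.142 with A29; 5.89, adjusted p = 1.53e-06 without it). Spp1, the alphav and alpha4 ligand osteopontin, stood at 19.1, 0.0760, 23.0 and 31.7 TPM and at 0.161 to 0.232 TPM in wild-type hearts (relative change 3.02 with A29 and 4.02 without it), and it was among the genes tested because of the labelled KO hearts. Ctgf, a secreted matrix protein induced by TGF-beta, stood at 317, 10.4, 317 and 211 TPM in labelled KO hearts and 15.4 to 44.9 TPM in wild-type hearts (adjusted p = 0.193 with A29 and 8.62e-05 without it). The fibrillar collagen gene Col3a1 stood at 344, 20.6, 1226 and 516 TPM against 13.7 to 41.3 TPM (adjusted p = 0.142 with A29 and 0.000139 without it). Tnc, the matrix protein tenascin-C, stood at 4.13, 0.0547, 25.3 and 8.23 TPM in the labelled KO hearts and 0.0447 to 0.229 TPM in wild-type hearts (relative change 2.14 with A29 and 2.84 without it), with the same limit as Spp1. Fibroblast markers moved with them: 6 markers, Col3a1 among them, summed to 1197, 229.8, 2235 and 1546 TPM in the labelled KO hearts and 191 to 283 TPM in wild-type hearts, with none at 0 and 6 of 6 higher without A29. Their part in these values was not tested.

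Among the adaptors, Rsu1, a partner of the complex of integrin-linked kinase, PINCH and parvin, stood at 31.6, 13.8, 33.9 and 35.2 TPM in the labelled KO hearts and 11.4 to 15.7 TPM in wild-type hearts (relative change 0.79 without A29, adjusted p = 0.000565; 0.61, adjusted p = 0.142 with it). Fermt3, the kindlin of blood cells, stood at 4.81, 1.12, 6.86 and 4.71 TPM and at 0.963 to 2.12 TPM in wild-type hearts (adjusted p = 0.00139 without A29 and 0.168 with it). Itgb1bp1 and the kinase gene Ptk2b also passed without A29, at fitted changes of 0.71 and 1.08 (adjusted p = 0.00999 and 0.0100). Their relative changes were 0.32 and 0.70, and with A29 they had adjusted p of 0.161 and 0.262. Tns1, the actin linker tensin 1, stood at 36.0, 89.5, 162 and 32.3 TPM in labelled KO hearts and 68.6, 191, 191 and 206 TPM in wild-type hearts (change -1.47, adjusted p = 0.179 with A29; -1.76, adjusted p = 0.0775 without it).

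Among the partners, Dmd, which encodes dystrophin, the link of the laminin receptor dystroglycan to actin, was lower without A29. It stood at 5.34, 14.7, 9.07 and 7.29 TPM in the labelled KO hearts and 11.8, 20.1, 24.5 and 23.9 TPM in wild-type hearts, a change of -1.72 without A29 (SE 0.27, adjusted p = 0.00438) and -1.34 with it (adjusted p = 0.142). Sparc, a collagen-binding matrix protein, stood at 634, 89.7, 792 and 666 TPM against 87.7 to 139 TPM in wild-type hearts (adjusted p = 1.05e-05 without A29 and 0.142 with it). The sarcoglycan gene Sgce stood at 16.1, 5.29, 17.0 and 19.3 TPM against 5.06 to 7.16 TPM (adjusted p = 0.00041 without A29 and 0.149 with it). Smoc2 passed without A29 as well (change 0.51, adjusted p = 0.00499; 0.36, adjusted p = 0.207 with it). Sgca, the striated muscle sarcoglycan, stood at 47.1, 62.4, 57.1 and 37.4 TPM and at 53.3 to 99.9 TPM in wild-type hearts (change -0.84, adjusted p = 0.169 with A29; -1.08, adjusted p = 0.0365 without it). Cardiomyocyte markers, 6 in number and none at 0, summed to 13923 to 24650 TPM in labelled KO hearts and 19972 to 27934 TPM in wild-type hearts. Without A29, 3 of the 6 were lower, and their part in the Dmd, Sgca and Itga6 values was not tested.

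In scWAT the comparison asks what the deletion changes in the fat itself. None of the integrins and laminins passed there: 31 of the 37 were tested, 0 were higher and 0 lower by limma, and 6 had an unadjusted p under 0.05 (4 upward and 2 downward). Over all 13682 genes tested, 0.0146% were called higher and 0.00731% lower, so that few genes of any kind passed. Without A26, 0 integrins and laminins passed, where 0.923% of all genes were called higher and 0.0447% lower. Groups did not overlap for 4 genes upward without A26 (Itga2b, Itgb3, Itga3 and Itgb4; 9.72% of all genes) and 1 downward (Itgb5; 6.55% of all genes). The 6 genes with the smallest unadjusted p are given with their values.

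Itgb5, the alphav partner described above, stood at 87.6, 32.5 and 81.9 TPM in the labelled KO libraries A24, A26 and A30, against 140.1, 131, 91.8, 116 and 107 TPM in wild-type scWAT A5, A7, A8, A12 and A14. All labelled KO values lay below all wild-type values, and A8 and A24 were neighbours. Its relative log2 change was -0.93 (SE 0.31, adjusted p = 0.246) with A26 and -0.48 (adjusted p = 0.482) without it. Itgb5 was thus the 1 tested gene of the 31 whose groups did not overlap downward, where 5.06% of all genes did so. Itga6 stood at 58.6, 38.8 and 82.0 TPM in labelled KO scWAT and 127, 136, 62.4, 106 and 68.9 TPM in wild-type scWAT (change -0.76, SE 0.32, adjusted p = 0.319), and the groups overlapped.

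Itga2b and Itgb3, the pair that forms the platelet fibrinogen receptor, lay above all wild-type libraries in the 3 labelled KO libraries, 2 of the 31 tested, where 5.23% of all genes did so. Itga2b stood at 5.59, 6.59 and 4.52 TPM in labelled KO scWAT and 4.42, 3.22, 4.01, 2.40 and 3.62 TPM in wild-type scWAT (change 0.51, SE 0.20, adjusted p = 0.266 with A26; 0.40, adjusted p = 0.547 without it). Itgb3 stood at 2.89, 5.66 and 2.61 TPM and at 1.55, 2.37, 2.15, 1.38 and 1.95 TPM in wild-type scWAT (change 0.64, SE 0.26, adjusted p = 0.270 with A26; 0.36, adjusted p = 0.569 without it). Of 6 platelet and megakaryocyte markers, which include Itga2b, only Itga2b and Pf4 averaged 1 TPM in either scWAT group. Pf4 stood at 267, 125 and 190.1 TPM in labelled KO scWAT and 97.4 to 194 TPM in wild-type scWAT, which overlapped. The other 4 (Gp1ba, Gp9, Ppbp and Treml1) stood at 0 to 1.10 TPM and 0 to 1.36 TPM, and the part of platelet RNA in the values was not tested.

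Chains found on lymphocytes, though not on them alone, stood highest in A26 of the labelled KO group. Itgal, the alpha chain of LFA-1, held 2.47, 28.6 and 1.51 TPM in the order A24, A26, A30, where wild-type scWAT held 1.00 to 2.51 TPM. Itga4 stood at 3.67, 11.2 and 2.28 TPM and at 1.51 to 2.66 TPM in wild-type scWAT (change 0.90, SE 0.39, adjusted p = 0.299; 0.35 without A26). Itgb7, the partner of Itga4 and Itgae on gut-homing lymphocytes, stood at 11.96, 45.6 and 10.1 TPM and at 4.18, 7.45, 13.2, 3.92 and 10.8 TPM in wild-type scWAT (change 1.18, SE 0.52, adjusted p = 0.309; 0.53 without A26). Without A26 both groups still overlapped for each of these chains, and A26 is the library with the B and T cell markers given above. In the same order Itgae held 2.92, 8.28 and 0.936 TPM and Itgb2 25.7, 57.0 and 16.9 TPM, against 1.54 to 2.68 TPM and 12.7 to 31.5 TPM in wild-type scWAT. The myeloid chain Itgam overlapped, at 17.9, 10.9 and 12.5 TPM against 6.94 to 19.4 TPM. So did Itgax at 1.58, 7.56 and 1.99 TPM against 1.93 to 7.06 TPM and Itgad at 0.120 to 0.706 TPM against 0.168 to 3.91 TPM.

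**Figure D4:**
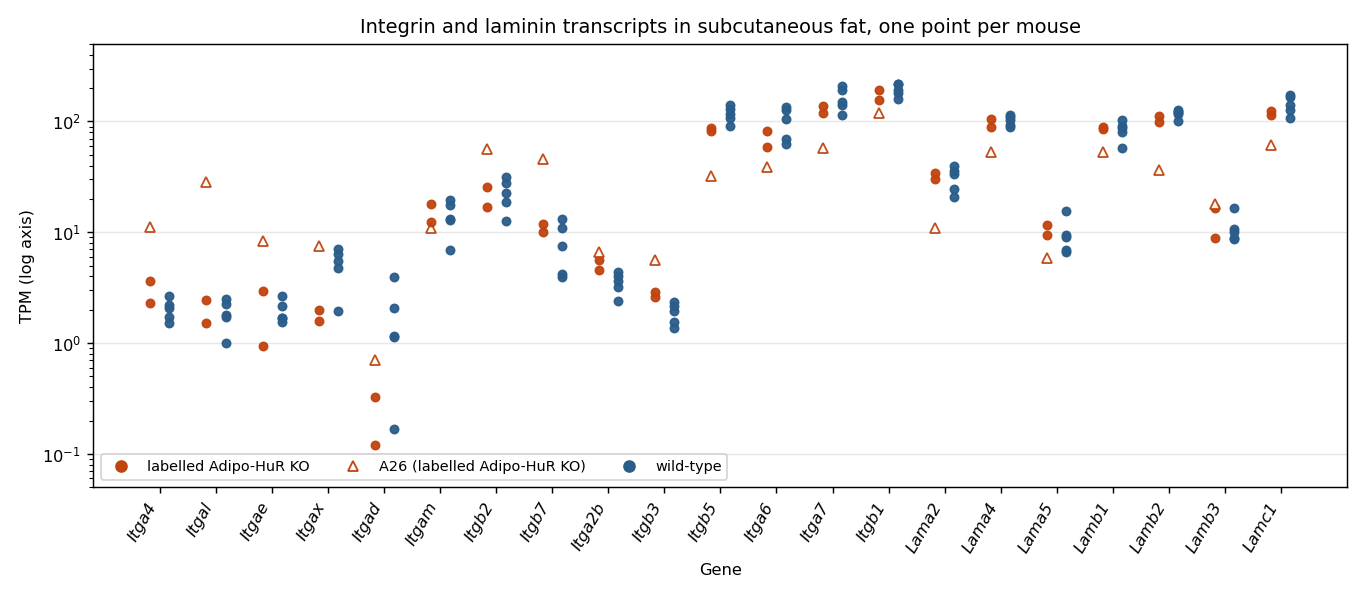
TPM (log axis) of integrin and laminin genes in scWAT, 1 point per mouse, labelled Adipo-HuR KO left of wild-type for each gene and A26 as an open triangle. A26 stands above all other libraries for Itga4, Itgal, Itgae, Itgb2 and Itgb7 and below all others for Itgb5, Itga6, Itga7, Itgb1, Lama2, Lama4, Lama5, Lamb1, Lamb2 and Lamc1.

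Of the remaining integrins of scWAT, Itga7 stood at 119, 57.5 and 139 TPM in labelled KO scWAT and 114 to 208 TPM in wild-type scWAT, and Itgb1 at 155, 118 and 193 TPM and 158 to 218 TPM. The collagen-binding chain Itga1 stood at 11.4 to 23.3 TPM and 17.0 to 27.3 TPM, and Itga11 at 2.05 to 9.07 TPM and 1.38 to 5.54 TPM. Itgav averaged 12.6 ± 4.82 TPM in labelled KO scWAT (n = 3) and 12.6 ± 2.65 TPM in wild-type scWAT (n = 5), and Itga5 13.3 ± 1.55 TPM and 13.3 ± 3.53 TPM (SD). Itga10, a cartilage-type collagen receptor chain just inside the limit of 1 TPM, stood at 1.501, 1.31 and 0.742 TPM in labelled KO scWAT and 0.285 to 1.13 TPM in wild-type scWAT. Itga3 (2.04 to 3.77 TPM and 2.07 to 2.99 TPM), Itga9 (4.47 to 7.40 TPM and 2.22 to 7.29 TPM) and Itgb4, the hemidesmosome chain (1.29 to 5.41 TPM and 1.34 to 3.05 TPM), overlapped too.

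The laminins of scWAT also overlapped between the groups. Lama4, the main alpha chain of fat, stood at 88.6, 52.7 and 106 TPM in labelled KO scWAT and 109, 114, 103.1, 88.5 and 93.4 TPM in wild-type scWAT. Lamc1 stood at 123, 60.8 and 115 TPM and at 164, 174, 140.3, 107 and 127 TPM in wild-type scWAT. Lamb2 stood at 112, 36.2 and 99.8 TPM and 101 to 126 TPM, and Lamb1 at 88.9, 52.8 and 86.3 TPM and 57.7 to 102 TPM. A26 was the lowest of the 8 scWAT libraries for each of these chains. Within the alpha chains Lama4 took 71.0% ± 5.04 in labelled KO scWAT (SD, n = 3) and 70.9% ± 2.50 in wild-type scWAT (n = 5), with ranges of 65.5% to 75.4% and 68.3% to 73.8%. Lama2 stood at 10.9 to 33.9 TPM and 20.8 to 39.9 TPM, and Lama5 at 5.90 to 11.6 TPM and 6.57 to 15.7 TPM. Lamb3 stood at 8.96 to 18.0 TPM and 8.64 to 16.7 TPM. Lamc3, a gamma chain that heart libraries held at no more than 0.107 TPM, stood at 1.73 to 5.71 TPM in labelled KO scWAT and 2.09 to 5.44 TPM in wild-type scWAT. Lama3 stood at 0.450 to 1.31 TPM and 0.825 to 1.67 TPM.

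Of the linked genes in scWAT, 0 of 29 adaptors, 0 of 25 partners and 0 of 21 ligands passed. Mfge8, a milk fat globule protein that binds alphav integrins, had the smallest p of the ligands, at 215, 202 and 355 TPM in labelled KO scWAT and 611 to 667 TPM in wild-type scWAT (change -1.38, SE 0.19, adjusted p = 0.0692; -1.23, adjusted p = 0.0322 without A26). Every labelled KO library lay below every wild-type library. Cyr61, a secreted integrin ligand, stood at 7.89, 27.6 and 15.8 TPM and at 24.9 to 104 TPM in wild-type scWAT (adjusted p = 0.231), and Nov and Icam2 were at adjusted p of 0.294 and 0.326. Of the adaptors, Actn4 stood at 201, 153 and 269 TPM in labelled KO scWAT and 274 to 394 TPM in wild-type scWAT (change -0.75, adjusted p = 0.217). Parva, Tln2 and Rsu1 had changes of -0.86, -1.10 and -0.55 (adjusted p of 0.225, 0.225 and 0.229). Of the partners, Sgcd, Cd151 and Sparc had changes of -0.87, -0.70 and -1.37 (adjusted p of 0.216, 0.216 and 0.219).

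The muscle sarcoglycan gene Sgca and the muscle adaptor Itgb1bp2 were higher without A26. Sgca stood at 4.997, 0.732 and 15.8 TPM in labelled KO scWAT and 0.0692 to 1.83 TPM in wild-type scWAT (adjusted p = 0.242 with A26 and 0.0376 without it). Itgb1bp2 stood at 4.63, 0.527 and 10.1 TPM and at 0.181 to 1.45 TPM in wild-type scWAT (adjusted p = 0.256 with A26 and 0.0225 without it). Both averaged under 1 TPM in wild-type scWAT and passed the filter through A24 and A30. Skeletal muscle markers moved with them: the 6 markers, with Myh4 at 0 in wild-type A12, summed to 2375, 209 and 5248 TPM in A24, A26 and A30, where they summed to 6.19 to 539 TPM in wild-type scWAT, and their part in these values was not tested.

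The tissues were compared in wild-type mice, as 4 hearts and 5 scWAT libraries. On the TPM scale 3 of 31 tested genes were higher in heart (Itga6, Itga9 and Itgb6) and 23 lower, where 8.12% of all genes were called higher and 78.5% lower. Mitochondrially encoded transcripts took 54.7% ± 3.99 of the TPM in wild-type hearts (SD, n = 4) and 8.70% ± 3.27 in wild-type scWAT (n = 5), and the median of all tested genes was -1.27 on the log2 scale. Median-of-ratios scaling, which brought that median to 0.00, called 11 of 27 higher in heart and 12 lower (34.5% and 32.8% of all genes). Higher in heart under both were the 3 genes above, and lower under both were 12: Itgb2, Itgam, Itgax, Itgb7, Itgb5, Itgb4, Itga7, Itga11, Lama4, Lamb1, Lamc1 and Lamc3. Itgb1, Lama2 and Lamb2 were called lower in heart on TPM and higher after median-of-ratios scaling, so that no direction is given for them. Of the 31 tested, Itgb6 averaged under 1 TPM in wild-type scWAT, and 11 genes did so in wild-type heart (Itgax, Itgb7, Itgb4, Itga11 and Lamc3 among them). These 12 passed the filter through the tissue where they are high, all 12 are among the called, and their call is no support for a difference. Changes below are given as fitted on TPM, which is what the p belongs to, and then relative to the median of all genes, which was not tested.

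Of the 3 higher in heart, Itgb6 ranged over 2.19 to 3.70 TPM in wild-type hearts and 0 to 0.0925 TPM in wild-type scWAT (fitted log2 change 1.91, relative 3.17). Itga6 stood at 133 to 211 TPM in heart and 62.4 to 136 TPM in scWAT (fitted 0.89, SE 0.25, adjusted p = 0.00442; relative 2.15). Itga9 stood at 5.57 to 11.6 TPM and 2.22 to 7.29 TPM (fitted 0.76, SE 0.28, adjusted p = 0.0238; relative 2.02). Lower in heart, Itgb2 stood at 1.32 to 2.65 TPM and 12.7 to 31.5 TPM in scWAT (fitted -2.98, SE 0.25, adjusted p = 2.09e-07; relative -1.72). Itgam had a fitted change of -2.48 (adjusted p = 1.3e-06; relative -1.21). Itgb7 stood at 0.270 to 0.394 TPM in heart and 3.92 to 13.2 TPM in scWAT, and Itgax at 0.117 to 0.296 TPM and 1.93 to 7.06 TPM. Macrophage markers summed to 94.3 to 152 TPM in wild-type hearts and 491 to 1122 TPM in wild-type scWAT, and their part was not tested. Of the laminins, Lama4 stood at 8.78 to 16.4 TPM in heart and 88.5 to 114 TPM in scWAT (fitted -2.78, SE 0.19, adjusted p = 4.07e-08; relative -1.52). Lamc1 stood at 11.5 to 30.04 TPM and 107 to 174 TPM (fitted -2.57, adjusted p = 1.37e-06; relative -1.30), and Lamb1 at 9.21 to 20.5 TPM and 57.7 to 102 TPM (fitted -2.31, adjusted p = 1.31e-06; relative -1.04). Itga7 stood at 22.4 to 43.3 TPM in heart and 114 to 208 TPM in scWAT (fitted -2.12, adjusted p = 2.25e-06; relative -0.86).

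Within wild-type hearts, Itga6, Itgb1 and Lamb2 had the highest mean levels of the 37 genes, at 179.7 ± 33.4, 138 ± 10.9 and 72.4 ± 29.2 TPM (SD, n = 4). In wild-type scWAT these places were held by Itgb1, Itga7 and Lamc1, at 193 ± 24.99, 161 ± 38.7 and 143 ± 27.3 TPM (n = 5), and neighbours among these 3 overlapped in their ranges in both tissues, except Itgb1 and Lamb2 in heart. The laminin alpha chains of the hearts were 41.9% ± 6.35 Lama2, 28.9% ± 1.75 Lama4 and 28.6% ± 7.70 Lama5, where those of scWAT were 21.5% ± 4.67 Lama2, 70.9% ± 2.50 Lama4 and 6.69% ± 2.43 Lama5. The 4 genes under 1 TPM in every group were Itga8, Itga2, Itgb8 and Lama1, with highest group means of 0.865, 0.724, 0.658 and 0.0344 TPM, and the nearest genes above were Itga10, Lama3 and Itgad, at 1.18, 1.25 and 1.69 TPM. A mean of 1 TPM was reached by 24 of the 37 genes in labelled KO hearts, 20 in wild-type hearts, 30 in labelled KO scWAT and 31 in wild-type scWAT.

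**Figure D5:**
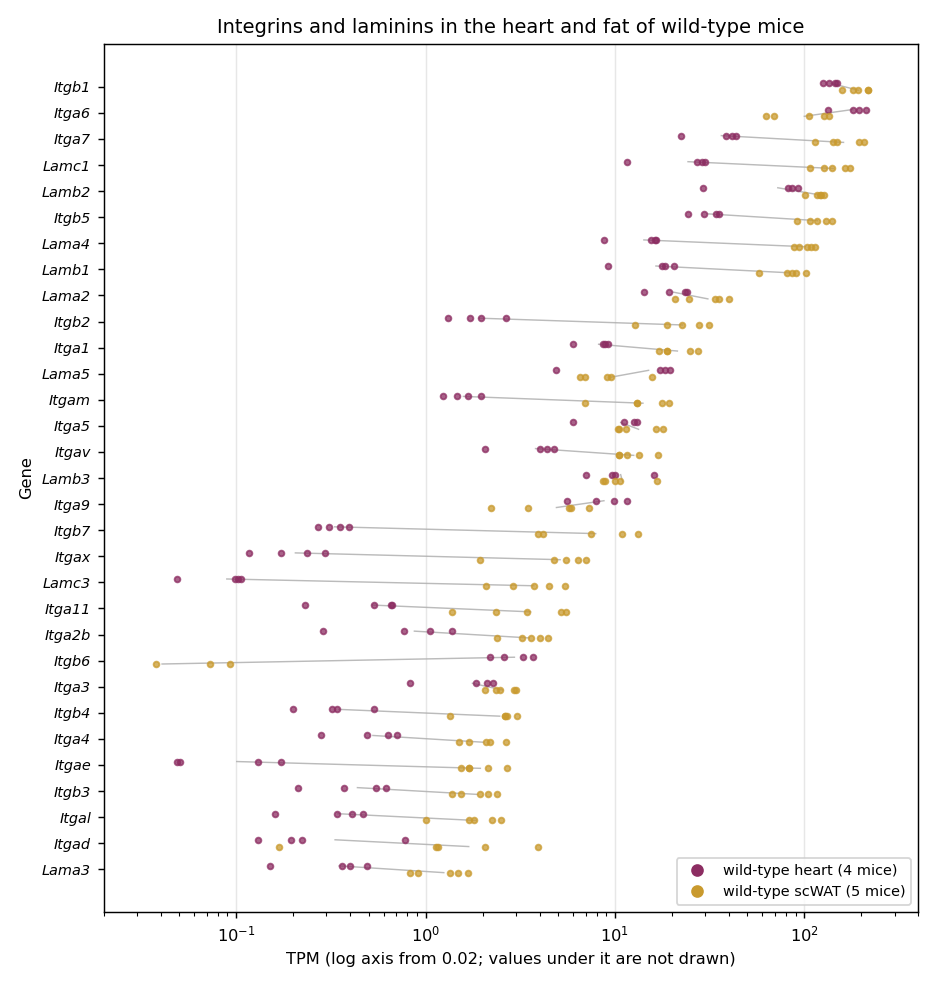
TPM (log axis) of the integrin and laminin genes described whose mean reached 1 TPM in wild-type heart or wild-type scWAT, 1 point per mouse, heart drawn above scWAT in each row, with a grey line between the group means. Itgb2, Itgam, Itgax, Itgb7 and Lama4 lie to the right in scWAT, with 8.78 to 16.4 TPM of Lama4 in heart and 88.5 to 114 TPM in scWAT, and Itgb6 lies to the right in heart.

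Whether the genotype difference itself differed between heart and scWAT was tested with an interaction term over all 16 libraries. Of 20 tested integrins and laminins, 0 passed in either direction, with 4 at an unadjusted p under 0.05 (3 upward and 1 downward), where 0.00867% of all genes were called higher and 0.052% lower. Itgb5, at more than 70 TPM in hearts A25, A30 and A31 and under 90 TPM in the labelled KO scWAT, had the smallest p: its genotype difference was 1.60 larger in heart than in scWAT relative to the median (log2, SE 0.48, adjusted p = 0.0898). Itgb1 followed at 0.74 (SE 0.30, adjusted p = 0.104) and Lamb3 at -1.20 (adjusted p = 0.171), and Itga1, Itgam and Lama4 had adjusted p of 0.233, 0.284 and 0.295. Without A29, 5 of 21 were higher in the interaction (Itgb5, Itgb1, Itgam, Itgb2 and Itga1; 22.4% of all genes) and 0 lower (2.27%), with Itgb5 at 1.84 (adjusted p = 0.000852) and Itgb1 at 0.81 (adjusted p = 0.00218). Mouse A30 of the labelled KO group gave both tissues and held Itgb5 at 85.3 TPM in heart and 81.9 TPM in scWAT.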

How the data were processed

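Frozen tissue was extracted with Trizol and libraries were made with a TruSeq kit, per the labels' protocols. Each library has a deposited table of TPM by gene symbol, per the file headers, and each sums to 1e+06. Which aligner, quantifier, build and annotation they used is not given in the sources used here. TPM keeps no depth, so depth is unknown and no counting interval is given, and values of genes with close copies are uncertain.

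Groups came from the genotype and tissue labels, and each library of a group was a different mouse. Genes averaging 1 TPM or more over a fit's libraries were tested on log2(TPM + 1), which understates changes of low genes, with limma 3.58.1 in R 4.3.3 (eBayes with trend, 2-sided), each tissue alone, with Benjamini-Hochberg adjustment over all genes and a threshold of 0.05. The interaction used all 16 libraries and genes averaging 1 TPM or more in each tissue. The fit was run on simulated data with known changes and independent noise for each gene. Those data held no library apart from its group, as A29 and A26 are. The run therefore does not bear on calls that rest on them. Members, roles, lists and markers were chosen with earlier results of these data known. Fold changes were given for genes past the threshold, filled to 6 per genotype comparison by unadjusted p, for heart also for those passing without the deciding library, for up to 8 per direction between tissues, and for up to 4 per linked list. The counts cover all members, but 1 laminin gene and 1 gene of a linked list are not reported here by name or value. Itga5, Itgax and the shares of laminin chains were described after their values had been seen.

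The mouse number pairs the tissues of 1 animal. Deviations from the group means correlated at 0.037, 0.062, 0.167 and 0.118 for A5, A7, A8 and A14 over 11536 genes. Alternatives were other pseudocounts (0.25 and 5), filters (none and 5 TPM), scalings, robust and weighted fits, a shared fit, the mouse as a block and each library left out. No genome coordinates of the files are given, and the promoter sequences are those of RefSeq.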

Additional observations from a re-analysis of the deposited data

Results flagged for a closer look

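Each gene at 1 TPM or more was checked in each group of 4 or 5 libraries for a library far from the rest, and 15 of 99 groups held one. Chance alone gives about 1 in 20, but the genes share their libraries and are not independent. No excess is therefore read from the count. Wild-type heart A5 accounted for 5 of the 15, each time as the lowest: Itga1 at 6.02 TPM (others 8.69 to 9.23), Lama4 at 8.78 TPM (15.5 to 16.4), Lama5 at 4.87 TPM (17.3 to 19.5), Lamc1 at 11.5 TPM (27.0 to 30.04) and Lamc3 at 0.0488 TPM (0.0989 to 0.107). Labelled KO heart A30 accounted for 4, each time as the highest: Itga7 at 66.2 TPM (others 27.4 to 28.7), Lama3 at 0.727 TPM (0.273 to 0.292), Lamb1 at 30.6 TPM (10.6 to 12.4) and Lamb2 at 113 TPM (30.6 to 37.7). Labelled KO heart A25 was lowest for Itgad at 0.125 TPM (0.363 to 0.405) and for Lamb3 at 4.80 TPM (6.81 to 7.14).

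In the other cases, wild-type heart A8 was highest for Itgad at 0.783 TPM (others 0.1299 to 0.224). In wild-type scWAT, A14 was highest for Itga10 at 1.13 TPM (0.285 to 0.525), A12 was lowest for Itgb4 at 1.34 TPM (2.62 to 3.05) and A8 was highest for Lamb3 at 16.7 TPM (8.64 to 10.7). Groups of 3 libraries, which include labelled KO scWAT, were not checked in this way.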

How the results depend on the processing

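In heart, leaving out each library in turn gave 0 to 8 genes higher and 0 to 1 lower, and A29 gave both upper ends. Array weights gave 8 higher and 9 lower, against 0 and 0 in the main fit, and the other alternatives left both at 0. For the interaction, leaving out 1 library gave 0 to 5 higher and 0 lower, with A29 at the upper end, and array weights gave 5 higher and 4 lower. Between the tissues of wild-type mice, 3 genes were higher in heart and 23 lower in the main fit. Median-of-ratios scaling gave 11 and 12, quantile normalization 11 and 13, removal of mitochondrially encoded genes 8 higher, and a filter of 5 TPM, with 17 genes tested, 12 lower. The filter left fewer genes to test, and for the other settings the cause was not tested. In scWAT the counts were 0 and 0 in the main fit and in each of the 19 alternatives. Of 175 values of single heart genes, 156 kept their side of the threshold and 19 newly passed it; for the interaction 146 of 155 kept it and 9 newly passed, for scWAT 111 of 111 kept it, and for the tissues 213 of 217. The 4 that lost the call were all Itga9, at adjusted p up to 0.0776. These values cover only genes followed singly, 10 in heart, 6 in the interaction, 6 in scWAT and 11 between the tissues. None of these values changed direction. Outside those 11 genes, Itgb1, Lama2 and Lamb2 were called lower in wild-type heart on TPM and higher after median-of-ratios scaling. Their fitted log2 changes were -0.47, -0.58 and -0.81 on TPM and 1.02, 0.86 and 0.67 after that scaling.

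With the mouse as replicate block, the tissue counts were 3 and 23 and the interaction counts 0 and 0, as without it, and it changed no call. Within a tissue, no paired analysis was possible because no mouse belongs to both genotypes. The libraries number 3 to 5 a group and their depth is unknown, so a difference that did not pass is not shown to be absent.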
